A study of Mus musculus with 6 samples.

Results

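Baseline expression was described in the wild-type retinal explants of a study of Sall3, a zinc finger transcription factor gene of the Spalt family. These are 3 of the 6 samples of the series, the columns whose titles name wild-type explants; the knockout samples were not used. Each sample was RNA from 3 pooled retinas of C57BL/6 mice of mixed sex, taken on postnatal day 0, flattened on a membrane filter and kept floating on serum-containing medium for 7 days. No transgene or treatment other than the culture is given for them. Each was hybridised to its own Affymetrix exon array. A gene was represented by its brightest transcript cluster, a group of probes along the exons of a putative transcript, among clusters with 1 gene symbol, which gave 19611 genes from 22608 clusters.

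The mouse retina finishes cell production after birth. Ganglion cells, horizontal cells, amacrine cells and cones are made before or around birth, while most rods, bipolar cells and Müller glia are made in the first postnatal week. Removal of the eye cuts the axons of ganglion cells and separates the retina from its blood supply and, usually, from the pigment epithelium. An explant is therefore a tissue in which photoreceptors mature in the absence of blood flow and of the optic nerve.

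The signal of a cluster depends on how well its probes bind as well as on RNA amount, so the order of genes given here is an order of array signal and not of RNA molecules. Signals are not per length, because the cluster value summarises probes and does not add them up. In this order genes that every cell uses can stand anywhere. The 41 genes measured with a ribosomal protein symbol had a median of 6.62, at the 48.9th percentile of all genes. They ranged from 8.77 for Rpl41 to 2.10 for Rpl7. This family was taken by symbol and also holds related genes such as Rpl3l and Rpl39l. Fewer cells of a type and less RNA per cell cannot be told apart in such bulk samples.

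The 3 arrays were close to each other. Pearson correlations over the 19611 genes lay between 0.993 and 0.996, and the median SD of a gene over the 3 arrays was 0.08 log2 units, with a 95th percentile of 0.33. The difference between wild-type 1 and wild-type 2 had an SD of 0.12 over genes above the reference defined below, against 0.21 for wild-type 1 and 3 and 0.19 for wild-type 2 and 3. Wild-type 3 thus lay farther from the other arrays than these lay from each other. Separate litters or culture runs are not stated in the labels, so the spread may be technical, and 1 group of 3 allows no test between groups. No p-value is given anywhere.

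Receptor genes of the nose were used to show what the array reports for genes that the retina is not known to use. The 904 olfactory and vomeronasal receptor genes had a median signal of 3.24, against 6.69 for all genes, and stood at the 6.78th percentile in the median. Their 95th percentile on each array, 5.80, 6.00 and 5.89 on wild-type 1, 2 and 3, served as the reference level. A gene was counted as above the reference when it exceeded this level on all 3 arrays, which held for 11811 genes or 60.2%. Not every silent receptor was dim: 32 of the 904 themselves passed, and the brightest were Olfr1411 at 7.49, 7.50 and 7.13 and Olfr71 at 7.25, 7.29 and 7.42 on wild-type 1, 2 and 3. Their means, 7.38 and 7.32, lay below the median of 7.83 of the genes that passed but above that of all genes, so a gene just above the reference cannot be told from a bright silent receptor.

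**Figure D1:**
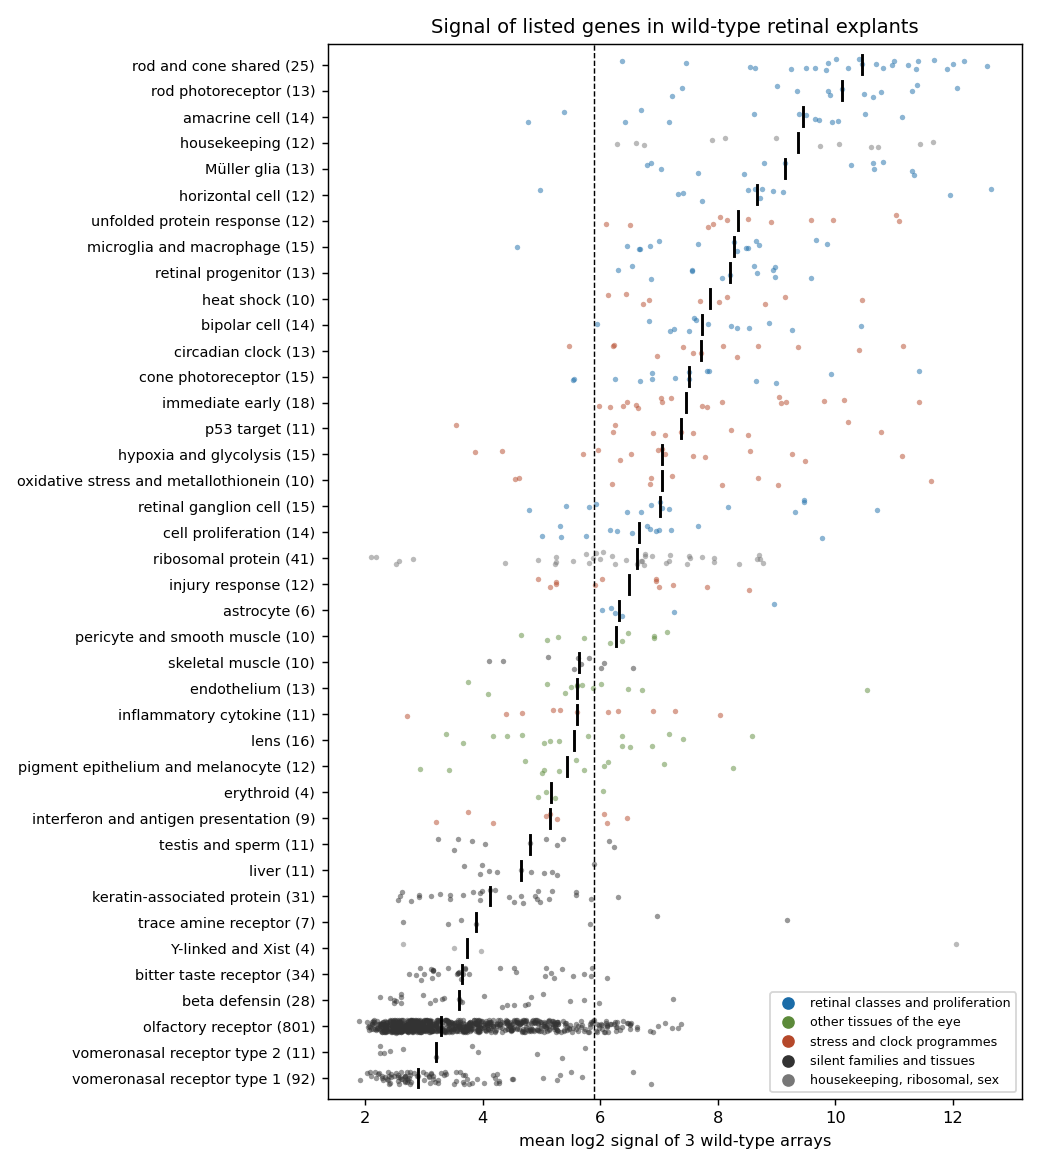
Mean log2 signal over the 3 wild-type arrays (horizontal axis) of every measured gene of each list or family, 1 point a gene, with list medians as black bars and lists ordered by median percentile. The numbers of genes are in parentheses and the dashed line is the mean of the 3 reference levels; the shared and rod photoreceptor lists stand at the top, with medians of 10.45 and 10.12, the cone list in the middle with 7.50, and vomeronasal receptors of type 1 at the bottom, with 2.89.

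Rod genes and genes shared with cones held the top of the list order, while cone genes stood in its middle. The median was 10.45 for genes used in both rods and cones (98.0th percentile), 10.12 for rod genes (96.9th) and 7.50 for cone genes (63.6th). All 25 shared genes, all 13 rod genes and 13 of 15 cone genes measured were above the reference, against 60.2% of all genes. Among the brightest 5% of genes, 981 in number, were 18 shared, 9 rod and 2 cone genes, which is 54.7% of the 53 photoreceptor genes. The list of class genes was chosen with earlier results of these data known, so the shares are given without a test.

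The brightest photoreceptor gene was Rbp3, which encodes the retinoid-binding protein of the matrix between photoreceptors and pigment epithelium. It stood at 12.57, 12.56 and 12.62 on wild-type 1, 2 and 3 and had rank 3 among all genes by mean. Cdhr1, a cadherin at the base of the outer segment, stood at 12.18, 12.21 and 12.17. The homeodomain factor Otx2, which commits cells to the photoreceptor fate and is also used in bipolar cells, stood at 11.97, 12.04 and 11.99. For these 3 genes the arrays differed by at most 0.07. Rom1, a structural protein of outer segment discs, followed at 11.89 ± 0.02 (SD, n = 3) and the chaperone gene Aipl1, needed for the photoreceptor phosphodiesterase, at 11.67 ± 0.25, where wild-type 3 was the low array at 11.38. Guca1a, a guanylate cyclase activator, was the dimmest of the shared genes at 6.37 ± 0.05.

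The promoters of Rbp3, the brightest photoreceptor gene, and of Opn1sw, the photoreceptor gene that differed most between the arrays, are shown from RefSeq in build GRCm38.p6, 250 bases before to 50 bases after the gene start. Rbp3 lies at chr14:33953753-33954052, plus strand, and Opn1sw at chr6:29380464-29380763, minus strand. Capitals mark TAATCC, the core bound by the photoreceptor factor Crx, read here on the opposite strand.
Rbp3: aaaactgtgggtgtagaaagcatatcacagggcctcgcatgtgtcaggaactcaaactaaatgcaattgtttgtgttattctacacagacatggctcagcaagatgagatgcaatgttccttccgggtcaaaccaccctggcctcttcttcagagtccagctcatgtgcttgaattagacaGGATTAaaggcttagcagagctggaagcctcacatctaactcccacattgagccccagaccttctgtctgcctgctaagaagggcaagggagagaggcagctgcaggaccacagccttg
Opn1sw: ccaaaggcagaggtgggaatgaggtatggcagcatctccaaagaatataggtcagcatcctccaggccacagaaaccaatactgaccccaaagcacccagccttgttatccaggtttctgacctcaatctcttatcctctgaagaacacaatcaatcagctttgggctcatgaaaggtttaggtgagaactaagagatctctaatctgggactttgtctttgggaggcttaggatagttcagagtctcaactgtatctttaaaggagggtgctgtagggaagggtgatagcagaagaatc
Rbp3 held 1 match, starting 69 bases before the gene start, and Opn1sw held none in this window. Of the 44 photoreceptor genes with a promoter in the table, 17 held TAATCC on either strand (38.6%), against 2199 of 27025 genes (8.14%). These matches are a description of letters and not of binding.

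Rod genes were bright and even. Reep6, a membrane-shaping protein of rods, led at 12.11, 12.13 and 11.97, followed by the phosphodiesterase subunit Pde6b at 11.37, 11.41 and 11.40 and the rod transducin alpha subunit Gnat1 at 11.26, 11.34 and 11.31. The exchanger Slc24a1 stood at 10.78 ± 0.02, the inhibitory phosphodiesterase subunit Pde6g at 10.63 ± 0.26, the transducin beta subunit Gnb1 at 10.48 ± 0.03 and Pde6a at 10.12 ± 0.10 (SD, n = 3 each). Nrl, the transcription factor that decides for rods, stood at 9.90 ± 0.06, the channel subunit Cngb1 at 9.88 ± 0.08 and Sag, the rod arrestin, at 9.34 ± 0.04. The dimmest were Gngt1, the transducin gamma subunit, at 7.39 ± 0.16 and the nuclear receptor Esrrb at 7.22 ± 0.06. Of the 12 neighbouring pairs in the rod order, 8 kept it on all 3 arrays; the pairs that did not were Slc24a1 with Pde6g, Pde6g with Gnb1, Nrl with Cngb1 and Sag with Cnga1. Nr2e3 was not analysed here.

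Cnga1, the other subunit of the rod channel, was the uneven member of the rod list. It stood at 9.54 on wild-type 1, 8.88 on wild-type 2 and 8.59 on wild-type 3, an SD of 0.49, while its partner Cngb1 stood at 9.83, 9.84 and 9.97. Cngb1 was thus nearly equal on wild-type 1 and 2, and its SD of 0.08 was that of the median gene.

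Cone genes were spread over a wider range of signal. The cone transducin beta subunit Gnb3, which bipolar cells also use, was brightest at 11.50, 11.46 and 11.29. The short-wavelength opsin Opn1sw stood at 10.69, 9.73 and 9.37, and the phosphodiesterase subunit Pde6c at 9.17, 9.03 and 8.77. The thyroid hormone receptor Thrb, which governs opsin choice in cones, was level at 8.65, 8.67 and 8.65. In the middle stood Ccdc136 (7.85 ± 0.09), the channel subunit Cngb3 (7.82 ± 0.12), the retinoid receptor Rxrg (7.51 ± 0.17), Otop3 (7.50 ± 0.09) and the exchanger Slc24a2 (7.27 ± 0.15).

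At the lower end were the cone transducin subunits Gngt2 (6.88 ± 0.12) and Gnat2 (6.88 ± 0.13) and the cone arrestin Arr3 (6.68 ± 0.10). The middle-wavelength opsin Opn1mw stood at 6.52, 6.06 and 6.14, above the reference on every array but below the brightest silent receptors. Cnga3, a channel subunit, at 5.54 ± 0.05 and Pde6h, the inhibitory subunit of the cone phosphodiesterase, at 5.54 ± 0.04 were not above the reference. Gngt2 with Gnat2, Cnga3 with Pde6h, Ccdc136 with Cngb3 and Rxrg with Otop3 changed places between arrays, and the other 10 of the 14 neighbouring pairs kept their order.

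**Figure D2:**
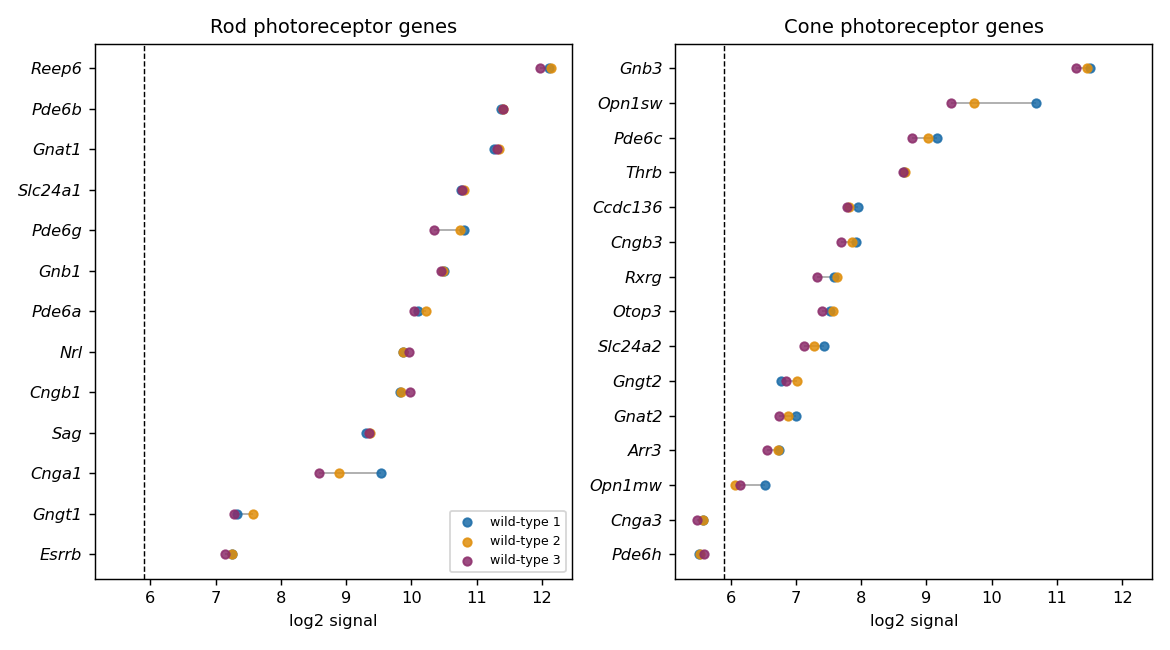
Log2 signal (horizontal axis) of each rod gene (left) and cone gene (right) on the 3 wild-type arrays, 1 point an array, genes ordered by mean; the dashed line is the mean reference level. Opn1sw among cone genes (10.69 on wild-type 1 against 9.73 and 9.37) and Cnga1 among rod genes (9.54 against 8.88 and 8.59) have the widest spans.

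The short-wavelength opsin was the cone gene with the largest spread. Its SD of 0.68 was the largest of all photoreceptor genes, and its highest array exceeded its lowest by 1.31 log2 units or 2.49-fold. Wild-type 1 stood 2.20-fold above the mean of wild-type 2 and 3. The cone list leaned the same way: 9 of 13 members above the reference were highest on wild-type 1, against 20.4% of all genes above it, and 11 were lowest on wild-type 3, against 58.9%. Of all genes above the reference, 64% were highest and 7.61% lowest on wild-type 2. These shares depend on the scaling: with gene rows alone normalized, 35.8% were lowest on wild-type 3, against 9 of the 13 cone genes. In the median cone genes lay 0.09 above their mean on wild-type 1 and 0.09 below it on wild-type 3, each less the value of all genes above the reference. Without wild-type 1, and also without wild-type 3, no cone gene spanned over 1 log2 unit. Hypoxia and glycolysis genes, with 6 of 11 highest on wild-type 1 and 9 lowest on wild-type 3, leaned in the same direction, and their part in the cone values was not tested.

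Amacrine cell genes came next to the rod list among the retinal classes, with a median of 9.44 (92.4th percentile) and 12 of 14 above the reference. The transcription factor Tfap2b stood at 11.18, 11.11 and 11.09 and the glycine transporter Slc6a9 at 10.62, 10.60 and 10.30. The vesicular transporters of acetylcholine, Slc18a3, and of GABA and glycine, Slc32a1, stood at 10.04 ± 0.09 and 9.94 ± 0.06 (SD, n = 3 each). The dopamine-synthesising enzyme gene Th, a marker of a rare amacrine type, stood at 6.69 ± 0.16, and Ptf1a, a factor of amacrine and horizontal precursors, was dimmest at 4.77 ± 0.14. All 13 neighbouring pairs in this list kept their order on all 3 arrays.

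Horizontal cell genes had a median of 8.67 (83.7th percentile), with 11 of 12 above the reference. Its 2 brightest genes are not restricted to horizontal cells. Ndrg1, a stress- and hypoxia-responsive gene, was the brightest of all 19611 genes at 12.64, 12.69 and 12.61, and Prox1, a homeodomain factor used in several retinal cell types, stood at 11.95, 11.87 and 12.03. Megf11, a cell surface protein that spaces horizontal cells, stood at 9.11 ± 0.11 and the calcium-binding protein Calb1 at 8.94 ± 0.18. Onecut2, with 8 clusters, stood at 8.71 ± 0.32 on its brightest and the connexin gene Gja10 at 4.97 ± 0.33 on its only cluster, not above the reference. Adra2a had no named cluster used here.

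Bipolar cell genes had a median of 7.73 (68.0th percentile), with 13 of 14 above the reference. The kinase Prkca, a marker of rod bipolar cells, stood at 10.43 ± 0.05, the glutamate receptor Grm6 at 9.25 ± 0.22, the calcium sensor Scgn at 8.86 ± 0.20 and the factor Lhx4 at 8.53 ± 0.08. Vsx1 and Grik1, both used by cone bipolar cells, were lowest on wild-type 3, at 7.91 against 8.36 and 8.40, and at 7.34 against 7.81 and 7.65. Nyx, the dimmest member at 5.95 ± 0.04, fell short of the reference on wild-type 2. Of the 13 members above the reference 10 were lowest on wild-type 3, where 58.9% of all genes above it were lowest too.

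Ganglion cell genes were lowest in signal among the retinal neurons, with a median of 7.02 (55.3rd percentile) and 11 of 15 above the reference. Those on top are shared with other neurons: the microtubule regulator Stmn2 stood at 10.71 ± 0.13, the neurofilaments Nefm and Nefl at 9.47 ± 0.04 and 9.46 ± 0.13, and the factor Ebf3 at 9.31 ± 0.09. Isl2, a LIM homeodomain factor of ganglion cells, stood at 6.33, 6.63 and 6.38. Pou4f3, a POU factor of a part of the ganglion cells, was dimmest at 4.54, 4.90 and 4.90 and not above the reference. Members chosen after their values were seen were Rbpms, an RNA-binding protein used to label ganglion cells, at 5.92 ± 0.03, the melanopsin gene Opn4 at 5.80 ± 0.03 and the glutamate transporter Slc17a6 at 5.42 ± 0.06. These also were not above the reference on all arrays. Pou4f2 had no named cluster used here.

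Müller glia genes stood high, with a median of 9.14 (89.5th percentile) and all 13 above the reference. Carbonic anhydrase 2 (Car2) stood at 11.33, 11.34 and 11.32, the retinaldehyde-binding protein Rlbp1 at 11.31, 11.36 and 11.24, Crym at 10.81 ± 0.06 and the intermediate filament Vim at 10.66 ± 0.13. Apoe and the water channel Aqp4 were the least even, with SDs of 0.16 and 0.18, and Clu was dimmest at 6.80 ± 0.12. Astrocyte genes had a median of 6.31 with 6 of 6 above the reference; the urea transporter Slc14a1 stood at 8.95 ± 0.13, and the glial filament Gfap, which reactive glia raise, at 7.24, 7.43 and 7.06, the 59.1th percentile. With the 99th percentile of silent receptors as the reference, 2 of the 6 remained. Fewer of all genes passed with it too, so counts at that percentile are not to be set against the 60.2%.

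Microglia and macrophage genes had a median of 8.27 (77.5th percentile), with 14 of 15 above the reference, and a larger spread than other class lists. The lysosomal protein Cd68 stood at 9.51, 10.08 and 10.00, the adaptor Tyrobp at 9.51, 9.80 and 9.73, Fcer1g at 8.55, 8.93 and 8.62 and the receptor Trem2 at 8.65, 8.91 and 8.40. P2ry12, the purinergic receptor typical of resting microglia, stood at 7.00, 6.85 and 6.14. Cd68 and P2ry12, the 2 members with the largest SD, thus differed in opposite senses, with wild-type 1 lowest in Cd68 and highest in P2ry12. The list as a whole was split. Of the 14 members above the reference 7 were lowest on wild-type 1 and 7 on wild-type 3, against 33.4% and 58.9% of all genes above it. On wild-type 1, 3 members were highest, against 20.4%. The leukocyte phosphatase gene Ptprc was dimmest at 4.59 ± 0.03. The median SD of this list was 0.19, against 0.08 for all genes.

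Progenitor genes had a median of 8.20 (76.3th percentile) and all 13 measured were above the reference. Sox2, which Müller glia keep, led at 9.58 ± 0.18, followed by the eye-field factors Rax at 8.98 ± 0.06 and Lhx2 at 8.98 ± 0.02 and by Hes6 at 8.94 ± 0.02; Foxn4, which acts in precursors of amacrine and horizontal cells, was dimmest at 6.30 ± 0.04. Proliferation genes stood lower, with a median of 6.67 (49.7th percentile) and 10 of 14 above the reference. The cyclin gene Ccnd1 stood at 9.77 ± 0.10, the mitotic kinase Plk1 at 7.66 ± 0.18 and the replication helicase subunits Mcm5 and Mcm2 at 7.20 ± 0.16 and 6.99 ± 0.11. The spindle checkpoint kinase Bub1 (5.34 ± 0.26) and the kinetochore motor Cenpe (5.02 ± 0.18) were not above the reference. With the 99th percentile as the reference 5 of the 14 remained, where fewer of all genes passed too.

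Genes of tissues that border the retina were mostly dim. Of 55 genes of vessels, pigment epithelium, lens and red cells 22 were above the reference, or 40.0%, fewer than the 60.2% of all genes. Endothelial genes had a median of 5.61 with 4 of 13 above it, or 1 with the 99th percentile. Among these Kdr, a receptor for vascular endothelial growth factor that retinal neurons and progenitors also carry, stood at 10.54 ± 0.05, while Flt1 stood at 6.71 ± 0.05, Eng at 6.48 ± 0.08 and Emcn at 3.75 ± 0.01. Pericyte and smooth muscle genes had a median of 6.27 with 6 of 10 above the reference, or 2 with the 99th percentile, led by Pdgfrb at 7.14 ± 0.12. The actin gene Acta2 stood at 7.16, 7.08 and 6.51 and the peptidase gene Anpep at 6.04, 6.59 and 6.78, with opposite orders of wild-type 1 and wild-type 3, and the filament gene Des was dimmest at 4.66 ± 0.04.

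Pigment epithelium and melanocyte genes had a median of 5.44 with 4 of 12 above the reference, or 2 with the 99th percentile. Dct, a melanin enzyme, stood at 8.44, 8.13 and 8.22, but Rpe65, the isomerase that defines the pigment epithelium, at 2.87, 2.91 and 2.99, percentile 4.23. Lens genes had a median of 5.55 with 7 of 16 above the reference, or 3 with the 99th percentile: Cryab, which glia and stressed cells also make, at 8.58 ± 0.18, the crystallins Crybb2 at 7.40 ± 0.04 and Crybb1 at 7.17 ± 0.03 and the lens water channel Mip at 6.89 ± 0.31. The gamma crystallin Crygb, made in lens fibres, was dimmest at 3.37 ± 0.09. Of the erythroid genes 4 of 8 were measured, and the anion exchanger Slc4a1 alone was above the reference, at 6.04 ± 0.03, and none was with the 99th percentile. The dimmest erythroid member was Alas2 at 4.93 ± 0.03.

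Culture and stress programmes differed widely in signal. The genes of the unfolded protein and amino acid response were highest, with a median of 8.33 (78.4th percentile) and 12 of 12 above the reference. The chaperones Hspa5 and Pdia4 of the endoplasmic reticulum stood at 11.08 ± 0.06 and 11.02 ± 0.24, Hsp90b1 at 9.96 ± 0.02 and the factor Atf4 at 9.58 ± 0.14. Heat shock genes had a median of 7.86 with 10 of 10 above the reference, or 6 with the 99th percentile of silent receptors. The brightest were Hsp90aa1 at 10.45 ± 0.08 and Dnajb1 at 9.14 ± 0.06. The cluster used for Hsp90aa1, 1 of 3, is numbered among those of chromosome 3 genes, while the gene lies on chromosome 12. Whether its value is that of a copy elsewhere was not tested. The inducible Hspa1a stood at 8.18, 8.06 and 7.81 and Hspb1, the dimmest, at 6.12 ± 0.11. Genes of the p53 response had a median of 7.37 with 10 of 11 above the reference, from Ccng1 at 10.77 ± 0.17 and Sesn1 at 10.21 ± 0.08 to the death receptor Fas at 3.55 ± 0.02.

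Hypoxia and glycolysis genes had a median of 7.06 (55.9th percentile) with 11 of 15 above the reference. The glucose transporter Slc2a1 stood at 11.27, 11.27 and 10.88, Ddit4 at 9.49 ± 0.12, the lactate dehydrogenase Ldha at 9.44, 9.37 and 8.97 and P4ha1 at 8.54 ± 0.18. These 4 were all lowest on wild-type 3. The hypoxia-induced peptide gene Adm was dimmest at 3.87 ± 0.08. In the oxidative stress list, with a median of 7.05 and 8 of 10 above the reference, or 5 with the 99th percentile, the mitochondrial dismutase Sod2 was highest at 11.63 ± 0.12, followed by Srxn1 at 9.02 ± 0.06, while the quinone reductase Nqo1 was dimmest at 4.54 ± 0.21.

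Injury and immune programmes stood near or below the middle of all genes. The injury response of glia and photoreceptors had a median of 6.48 (46.9th percentile) with 7 of 12 above the reference. Stat3 stood at 8.53 ± 0.03, the protease inhibitor Serpina3n at 7.82 ± 0.22 and the galectin Lgals3 at 7.24 ± 0.26, while Lcn2, raised strongly in reactive glia, stood at 4.93 ± 0.04. Inflammatory cytokine genes had a median of 5.59 with 5 of 11 above the reference, or 2 with the 99th percentile; the chemokine Ccl3 was highest at 8.19, 8.27 and 7.64, and Il6 was dimmest at 2.71 ± 0.09. Interferon response and antigen presentation genes were the lowest of the stress programmes, with a median of 5.14 (26.8th percentile) and 2 of 9 above the reference. These 2 were Bst2 at 6.46 ± 0.16 and Oasl2 at 6.10 ± 0.10, and the ubiquitin-like Isg15 stood at 3.21 ± 0.26. With the 99th percentile as the reference, 0 of the 9 passed.

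Clock genes, which can differ between cultures collected at different times of day, were mostly even. Their median was 7.72 with 12 of 13 above the reference. Clock stood at 11.31, 11.07 and 11.08, Nr1d2 at 10.42, 10.43 and 10.37 and Arntl at 8.66, 8.69 and 8.70, while Dbp stood at 9.55, 9.49 and 9.05 and Cry2 at 5.58, 5.00 and 5.83. Per1, named after its values were seen, stood at 8.19, 8.17 and 8.62. The median SD of the list was 0.06, but those of Cry2, Dbp and Per1 were 0.43, 0.27 and 0.26. Cry2, the member not above the reference, lay below it on every array. Per2 lay only on clusters with several symbols.

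Immediate early genes, switched on within minutes by depolarisation, growth factors or handling, were the list with the largest spread between arrays. Their median was 7.46 (63.0th percentile), with 17 of 18 above the reference, or 11 with the 99th percentile of silent receptors, and a median SD of 0.22, against 0.08 for all genes. The brightest was Btg2, an antiproliferative gene, at 11.40, 11.38 and 11.50, and Jun stood at 10.20, 10.19 and 10.06. The factor Fos stood at 8.60, 8.79 and 9.83, Fosb at 5.85, 6.03 and 7.28 and the nuclear receptor Nr4a1, named after its values were seen, at 7.50, 7.41 and 8.55. Egr1 stood at 9.44, 9.69 and 10.27. Wild-type 3 was above both other arrays in each of the last 4, and by 2.20-fold, 2.52-fold, 2.13-fold and 1.63-fold over their mean in the order Fos, Fosb, Nr4a1 and Egr1. On wild-type 1 and 2 Fosb lay just above the reference levels of 5.80 and 6.00, so its fold starts near that level.

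The members described next were also named after their values were seen. Npas4, a factor induced by calcium entry in neurons, stood at 6.78, 6.95 and 7.85, Ier2 at 7.68, 7.99 and 8.56 and Egr2 at 5.87, 5.93 and 6.71, again with wild-type 3 on top. Egr2 was the member not above the reference, which it missed on wild-type 2. Atf3, Fosl2, Ier3 and Zfp36 were highest on wild-type 2. Of the 17 members above the reference 11 were highest on wild-type 3, against 15.6% of all genes above it, and 12 were lowest on wild-type 1, against 33.4%. That background depends on the scaling: when only the gene rows were normalized, 13 of the 17 were highest on wild-type 3, against 47.7% of all genes. Less the value of all genes above the reference, the list median lay at -0.13, -0.09 and 0.22 on wild-type 1, 2 and 3.

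**Figure D3:**
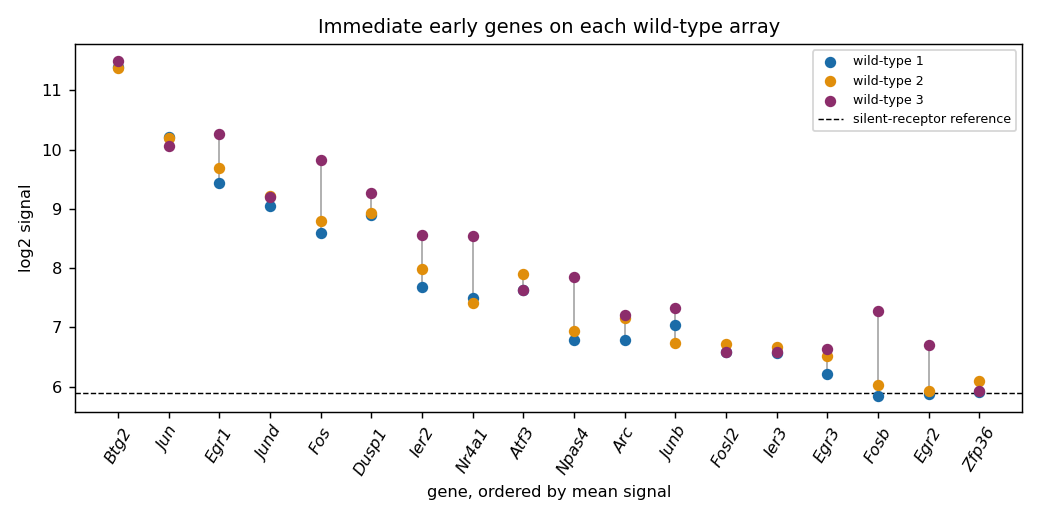
Log2 signal (vertical axis) of the 18 immediate early genes on each wild-type array, 1 point an array, ordered by mean; the dashed line is the mean reference level. Fos, Fosb, Nr4a1, Npas4 and Egr2 stand higher on wild-type 3 than on both other arrays, while Btg2, Jun and Jund differ little.

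The promoters of the 4 members that spanned over 1 log2 unit are shown because these moved together between arrays. They are from RefSeq in build GRCm38.p6, over the same window as above. Fos lies at chr12:85473640-85473939, plus strand, Fosb at chr7:19309996-19310295, minus strand, Nr4a1 at chr15:101266596-101266895, plus strand, and Npas4 at chr19:4989922-4990221, minus strand. Capitals mark TGACG, the core of the cyclic AMP response element, and its complement CGTCA.
Fos: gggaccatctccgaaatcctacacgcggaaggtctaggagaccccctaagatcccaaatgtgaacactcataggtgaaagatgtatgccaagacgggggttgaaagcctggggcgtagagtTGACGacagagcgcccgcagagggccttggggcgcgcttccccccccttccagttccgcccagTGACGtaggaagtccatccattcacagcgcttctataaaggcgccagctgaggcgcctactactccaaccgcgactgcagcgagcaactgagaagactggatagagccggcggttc
Fosb: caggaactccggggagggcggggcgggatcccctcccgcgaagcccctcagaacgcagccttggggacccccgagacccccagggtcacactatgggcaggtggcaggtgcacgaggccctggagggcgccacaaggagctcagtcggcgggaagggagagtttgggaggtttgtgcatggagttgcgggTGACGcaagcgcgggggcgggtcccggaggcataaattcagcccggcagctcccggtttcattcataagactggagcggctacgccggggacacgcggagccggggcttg
Nr4a1: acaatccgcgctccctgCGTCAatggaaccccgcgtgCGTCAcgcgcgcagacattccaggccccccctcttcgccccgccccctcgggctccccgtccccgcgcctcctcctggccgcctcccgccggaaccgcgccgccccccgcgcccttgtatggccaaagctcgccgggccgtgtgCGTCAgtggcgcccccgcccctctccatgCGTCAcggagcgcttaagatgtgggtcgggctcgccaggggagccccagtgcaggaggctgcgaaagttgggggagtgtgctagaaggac
Npas4: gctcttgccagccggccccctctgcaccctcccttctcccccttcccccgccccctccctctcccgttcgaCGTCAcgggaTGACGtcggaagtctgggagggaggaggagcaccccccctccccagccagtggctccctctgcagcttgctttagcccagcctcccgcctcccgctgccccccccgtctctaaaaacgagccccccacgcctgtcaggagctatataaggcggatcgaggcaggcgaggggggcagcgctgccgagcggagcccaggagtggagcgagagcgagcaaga
Fos held 2 matches, Fosb 1, Nr4a1 4 and Npas4 2. Of the 14 immediate early genes with a promoter in the table, 9 held TGACG on either strand (64.3%), against 6228 of 27025 genes (23.0%). The whole palindrome TGACGTCA, which contains TGACG, was held by 2 of the 14 (14.3%), against 2.03% of all genes, and the CArG box bound by serum response factor by 2 of the 14, against 1.81%. None of the 4 promoters shown held either of these. No match says only that the letters are not in this window.

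Members of other lists were also highest on wild-type 3 more often than the 15.6% of all genes above the reference, a share that was 47.7% with gene rows alone normalized. These were 6 of 10 heat shock genes, 13 of 24 ribosomal protein genes and 14 of the 30 olfactory receptors above the reference. Their medians lay at 0.09, 0.11 and 0.14 on that array less the value of all genes above the reference. The last value is of those 30 olfactory receptors only. Over all 904 silent receptor genes the median deviation was -0.03, 0.01 and -0.003 on wild-type 1, 2 and 3, with nothing subtracted. On the same measure all genes above the reference lay at 0.0004, 0.05 and -0.04. Set against those, the silent receptors as a whole lay lower on wild-type 1 and 2 and higher on wild-type 3. The housekeeping actin gene Actb stood at 10.47, 10.43 and 11.25. Proliferation genes were lowest on wild-type 3 in 9 of 10 members, with -0.09, and hypoxia and glycolysis genes in 9 of 11, against 58.9% of all genes above the reference, or 35.8% with gene rows alone normalized. The part of these lists in the immediate early values was not tested.

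**Figure D4:**
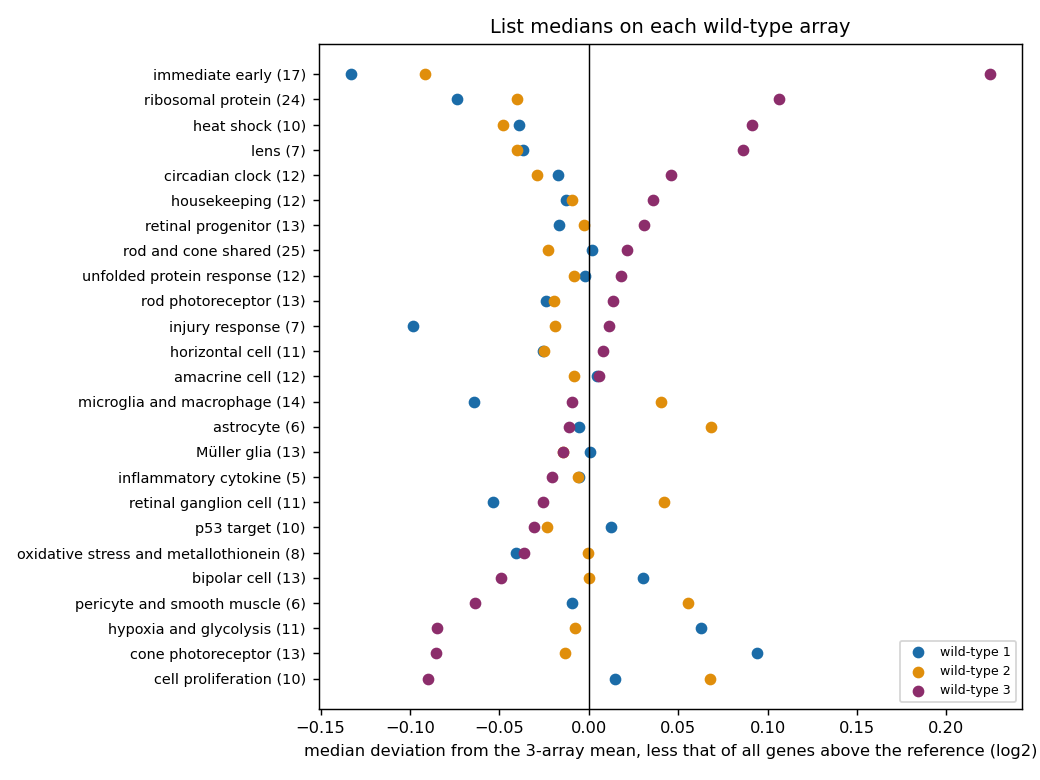
Median deviation of each list's genes from their own 3-array mean, less that of all genes above the reference (horizontal axis, log2 units), on each wild-type array, for lists with at least 5 genes above the reference (numbers in parentheses). Immediate early genes lie at 0.22 on wild-type 3, and the proliferation, cone, and hypoxia and glycolysis lists lie lowest on that array, at about -0.09 each.

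Among genes above the reference a wide span between arrays was rare. Of these 11811 genes, 39 spanned over 1 log2 unit (0.33%), and 5 of these were on a list: Fos, Fosb, Nr4a1, Npas4 and Opn1sw. Of the 11811, 311 were on a list, ribosomal protein genes included. Wild-type 3 was the array apart in 28 of the 39, being low in 20 and high in 8. How often it was apart among all genes was not counted. Of all genes above the reference 58.9% were lowest and 15.6% highest on wild-type 3. At any level 218 of all 19611 genes spanned over 1 log2 unit. Among them were 42 olfactory receptors and the ribosomal protein gene Rpl15 at 3.21, 5.50 and 6.10, named after its values were seen. Without wild-type 3 the count above the reference was 7, and without wild-type 1 it was 16. The 39 had several clusters in 35.9%, against 14.1% of the genes above the reference.

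Among genes above the reference, the largest SDs were these. The zinc finger gene Zfp964 stood at 8.84, 8.82 and 7.11, Wfdc10 at 6.54, 8.04 and 6.49 and Tmem144 at 8.55, 7.35 and 6.92. The transcript AY036118 stood at 7.35, 7.02 and 8.53. Genes with a known role among the 20 largest SDs included the adaptor Ywhaq at 8.97, 8.71 and 7.62, the peptide transporter Slc15a2 at 8.47, 8.15 and 7.18, the neurotrophin receptor Ntrk3 at 7.98, 7.46 and 6.70 and Nfyc, a subunit of a promoter-binding complex, at 7.71, 8.05 and 6.77. In these 4 genes wild-type 3 was the low array. The cluster used for Ywhaq, 1 of 2, is numbered among those of chromosome 9 genes, while the gene lies on chromosome 12. That used for Nfyc, also 1 of 2, is numbered away from those of other chromosome 4 genes. Whether these 2 values are those of copies elsewhere was not tested, so they are uncertain. Predicted genes and pseudogenes such as Gm4767, Gm5617, Gm6616 and Gm8840 were also among the 20; they can share probes with near-identical copies, so their values are uncertain.

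**Figure D5:**
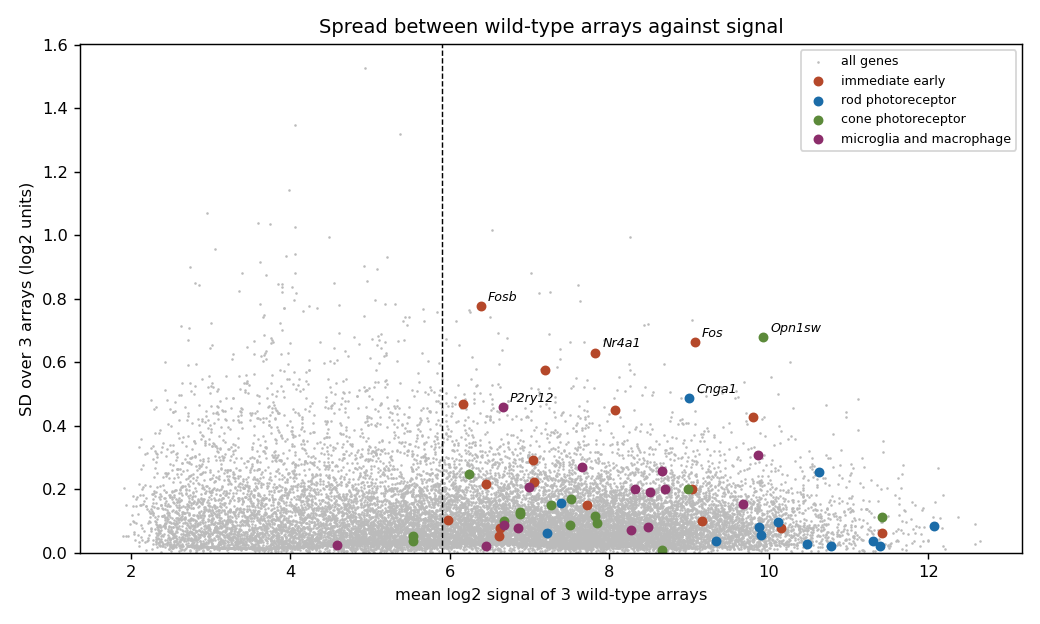
SD over the 3 wild-type arrays (vertical axis, log2 units) against mean log2 signal (horizontal axis) for all 19611 genes in grey, with 4 lists in colour and the mean reference level dashed. Fosb (0.78), Opn1sw (0.68), Fos (0.66) and Nr4a1 (0.63) stand out above the median SD of 0.08.

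Of the 20 brightest genes 4 were on a photoreceptor list. Behind Ndrg1 came Dpysl2, which encodes a microtubule-binding protein of growing axons, at 12.66, 12.62 and 12.49, and behind Rbp3 came Elovl4, an elongase of very long fatty acids in photoreceptors, at 12.39, 12.49 and 12.26. The vesicular glutamate transporter Slc17a7, used by photoreceptors and bipolar cells, stood at 12.21, 12.21 and 12.19. Of the 20, 6 were members of the retinal class lists: Ndrg1, Rbp3, Cdhr1, Reep6, Otx2 and Prox1. The others included the sodium pump subunit Atp1b2 (12.17 ± 0.08), the protease Ctsd (12.15 ± 0.11), the phosphatase subunit Ppp2r1a (12.18 ± 0.18), Plekhb1 (12.10 ± 0.09), the noncoding RNA Malat1 (12.08 ± 0.16), the vesicle fusion protein Snap25 (11.93 ± 0.14) and the tetraspanin Cd81 (11.92 ± 0.14). Ndrg1, Dpysl2 and Rbp3 took the first 3 ranks on every array, but their order among themselves differed between arrays.

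Silent families and tissues stood at the bottom. Type 1 vomeronasal receptors had a median of 2.89, type 2 receptors 3.20, olfactory receptors 3.29, beta defensins 3.60, bitter taste receptors 3.64, trace amine receptors 3.88 and keratin-associated proteins 4.12. Of the 100 genes in the last 4 families 4 were above the reference. They were Taar7b at 9.59, 9.03 and 8.89, Taar6 at 6.79, 7.23 and 6.89, Defb12 at 7.20, 7.13 and 7.38 and Krtap28-13 at 6.24, 6.12 and 6.54, of which Taar6 was named after its value was seen. Taar7b, one of a group of near-identical receptor genes, stood at the 89.8th percentile, far from the others of its family.

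Genes of liver, testis and skeletal muscle were above the reference in 4 of 32 cases (12.5%); with the 99th percentile no muscle or testis gene was. Liver genes had a median of 4.65 with none above it, from Apoa2 at 5.89 ± 0.04 to the fibrinogen chain Fgb at 3.68 ± 0.01, and albumin (Alb) stood at 4.25 ± 0.11. Testis genes had a median of 4.81, with the protamine Prm2 (6.23 ± 0.04) and the transition protein Tnp2 (5.89, 6.17 and 6.40) above the reference. Muscle genes had a median of 5.64, with the actin Acta1 at 6.56 ± 0.03 and the creatine kinase Ckm at 6.05 ± 0.03 above it. The highest of these reached the signal of Opn1mw and of the astrocyte list members Pdgfra (6.37 ± 0.17) and S100b (6.25 ± 0.07).

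The labels give the sex of the samples as mixed. Xist, the noncoding RNA made from the inactive X chromosome of females, stood at 12.19, 11.99 and 11.99 and ranked 14th of all genes. The Y-linked genes Uty at 4.16, 3.71 and 4.03, Kdm5d at 3.50, 3.62 and 3.40 and Eif2s3y at 2.69, 2.68 and 2.54 were below the reference on all 3 arrays, and Ddx3y had no named cluster used here. Whether the probes of these Y-linked clusters respond to male RNA is not known from these samples.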

How the data were processed

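RNA of 3 wild-type explant samples was measured on exon arrays. The authors' deposited table holds log2 signals, a scale inferred from values between 1.51 and 13.67, for 100843 transcript clusters. Per the submitters' processing notes, Affymetrix Expression Console, PLIER and mm8 were involved; the sources used here do not give background correction or normalization between arrays. A background signal would compress differences between dim genes. The number of arrays, 3, limits the precision.

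Values were quantile normalized over the 3 arrays, whose medians differed by 0.05, with no level filter. Clusters with 1 symbol (22608) were named through RefSeq (GRCm38.p6) where their gene identifier matched (22101) and by the platform annotation otherwise (507). Clusters with several symbols (1462) or none (76773) were not used. The 32 gene lists held 432 genes, of which 393 were measured, 15 lay only on clusters with several symbols and 24 had no named cluster; 8 families were taken by symbol. Members, lists and rules were chosen with earlier results of these data known.

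The text names the 20 brightest genes and the 20 largest SDs, both in part, the 10 brightest silent receptors in part, all rod, cone, Y-linked and Xist list members, and from other lists members among the 4 brightest, the dimmest and the 2 with the largest SD, with exceptions stated. No test was run, because 1 group has no contrast. The span count was run on simulated data, where it found 186 of 200 planted changes with 0 false calls. Noise there was equal for all genes, and changes were planted only in bright genes with 1 cluster. The run therefore checks the code and gives no error rate for the genes counted here. Alternatives were other scalings, the mean of a gene's clusters, reference percentiles of 90 and 99, a filter, and each array left out; scalings over gene rows alone and counts by array were added after seeing the data. Python 3.11.15, pandas 2.3.3, numpy 2.4.6 and matplotlib 3.10.9 were used.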

Additional observations from a re-analysis of the deposited data

How the results depend on the processing

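No paired analysis was possible because only the wild-type group was used, so the sample numbers pair nothing. The number of genes above the reference was 11811 of 19611. It stayed between 11407 and 11812 under other scalings, the cluster mean and the filter, and between 11855 and 11991 with an array left out. It was 9070 of the 19611 with the 99th and 13632 with the 90th percentile of silent receptors. Of 737 counts recomputed, 685 stayed within 1.5 times the reported value. A list with no counted gene before and after was taken as unchanged. Most lists had no gene spanning over 1 log2 unit, so many of these counts could hardly move and the share says little about robustness.

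With the 99th percentile, the counts above the reference became 2 for astrocytes, 5 for proliferation, 1 for endothelium, 0 for erythroid genes, 6 for heat shock, 11 for immediate early genes, 2 for inflammatory cytokines, 0 for interferon response, 0 for keratin-associated proteins, 3 for lens, 5 for oxidative stress, 2 for pericytes, 2 for pigment epithelium, 14 for ribosomal proteins, 0 for skeletal muscle and 0 for testis, and 24 genes spanned over 1 log2 unit. With the 90th percentile they became 2 for beta defensins, 4 for bitter taste receptors, 10 for endothelium, 2 for keratin-associated proteins, 1 for liver and 7 for skeletal muscle, and 1 bitter taste receptor spanned over 1 log2 unit. With the mean of clusters they were 2 for beta defensins and 0 for erythroid genes and keratin-associated proteins. The number of all genes above the reference also fell with the 99th and rose with the 90th percentile, as given above.

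With a span of 0.5 in place of 1, 637 genes were counted, among them 7 immediate early, 4 microglia, 3 housekeeping, 2 pericyte and 1 each of the horizontal cell, cytokine, injury, lens, ribosomal, rod, testis and trace amine lists. With an array left out, the count of genes spanning over 1 ranged from 7 (without wild-type 3) to 31 (without wild-type 2), that of immediate early genes from 0 to 4, that of cone genes from 0 to 1, and that of beta defensins and bitter taste receptors above the reference from 1 to 2 and from 0 to 1.

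The share of genes above the reference that were highest on wild-type 2 was 64.0% as reported, 34.5% as deposited and 23.1% with gene rows alone normalized. In the last setting 47.7% were highest and 35.8% lowest on wild-type 3. Immediate early members highest on wild-type 3 numbered 11 to 13 and cone members lowest on it 9 to 11 under all scalings run; why the shares moved was not tested. Signals of the 260 named genes moved by more than their SD in 27 with the cluster mean, in 0 with other scalings and in at most 2 with an array left out. Genes with 1 cluster cannot move with the cluster mean. The SD itself changed by at least its reported size in 12 as deposited and in 11 with each array centred on its median. With the cluster mean it did so in 5, and with an array left out in at most 1.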
